A study of Mus musculus with 15 samples.

Results

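Nrep, Unc45b and Tfcp2l1 are 3 genes whose levels were highest in blood progenitors that carried a pair of floxed Apc alleles and lower in cells with a hypomorphic allele. They were chosen by that pattern, the measured log2 levels of these same arrays, from 18194 genes that the platform annotation pairs with probe sets of 1 gene symbol. The annotation gives Nrep 2 probe sets, Unc45b 1 and Tfcp2l1 3, which makes 6 of the 45101 probe sets on the array. Because these values chose the genes, all levels and differences of the 3 genes are descriptions, without a test. The working name for the 3 was genes that need full Apc loss, and the values bear this out only in part: 15lox/1572T overlapped wild type, but 15lox/1638N lay between wild type and 15lox/15lox.

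Apc holds together the machinery that tags beta-catenin for destruction, and cells that lose it accumulate beta-catenin, which activates Wnt target genes together with Tcf and Lef factors. Nrep encodes a small, largely unstructured protein known from regenerating neurons and from myofibroblasts, where it has been tied to TGF-beta signalling. Unc45b encodes a chaperone that folds the myosin heads of striated muscle together with Hsp90. Tfcp2l1 encodes a transcription factor of the CP2 family, known from the renal collecting duct and from mouse embryonic stem cells, where it is part of the naive pluripotency network.

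The promoters of Tfcp2l1 and Unc45b are shown as a description only. Each window runs from 250 bases before to 50 bases after the start of the gene in RefSeq, assembly GRCm38.p6, plus strand, at chr1:118627695-118627994 for Tfcp2l1 and chr11:82911003-82911302 for Unc45b. Capitals mark TATAAA in the first and CTTTG, the core of the Tcf and Lef recognition sequence, in the second.
Tfcp2l1: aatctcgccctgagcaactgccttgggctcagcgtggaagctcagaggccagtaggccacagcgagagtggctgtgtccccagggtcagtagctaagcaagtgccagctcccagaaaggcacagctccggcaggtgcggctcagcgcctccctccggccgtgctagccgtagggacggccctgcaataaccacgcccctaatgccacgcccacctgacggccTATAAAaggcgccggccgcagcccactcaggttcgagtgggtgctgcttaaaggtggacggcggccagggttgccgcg
Unc45b: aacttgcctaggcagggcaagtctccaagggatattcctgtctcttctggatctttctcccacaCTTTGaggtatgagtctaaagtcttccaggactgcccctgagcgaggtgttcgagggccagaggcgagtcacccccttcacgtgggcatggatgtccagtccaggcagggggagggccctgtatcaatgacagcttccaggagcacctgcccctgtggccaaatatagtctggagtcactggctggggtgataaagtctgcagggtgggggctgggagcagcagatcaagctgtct
TATAAA lies 28 bases before the start of Tfcp2l1, and 13.6% of 32851 mouse promoter windows hold it on either strand. CTTTG lies 186 bases before the start of Unc45b, and 53.9% of the windows hold it on either strand. The longer Tcf and Lef sequences CTTTGAA and CTTTGAT, searched on both strands, are in neither window, and 8.65% of all windows hold at least 1 of them. The windows of Axin2 and Nkd1, both Wnt feedback genes, hold none of these sequences either. The G and C content was 65.3% for Tfcp2l1 and 57.0% for Unc45b, against a median of 52.7% over all windows. These are matches of letters only. No promoter is shown for Nrep.

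Levels came from arrays of LSK cells, the bone marrow fraction without lineage markers that carries Sca1 and Kit and contains the blood stem cells, from C57BL6 mice. All groups, wild type included, were transduced outside the animal with the virus MSCV-Cre-IRES-GFP, sorted for GFP and kept in Stemspan medium with growth factors. Cre removes the floxed part of Apc, so the groups were wt/wt (6 arrays, 3 of them used), 15lox/15lox (3 arrays), 15lox/1572T (3 arrays) and 15lox/1638N (3 arrays), where 1572T and 1638N are hypomorphic alleles. The labels give neither age nor sex, and do not say whether the replicates came from separate mice, so their spread may be technical. Wild-type arrays 4 to 6 were the control, as named when the genes were chosen. The means of arrays 1 to 3 lay within 0.05 of theirs at 96.8% of probe sets, against 25.7% for 15lox/1572T, as if shifted onto them. Arrays 1 to 3 were also all equal to each other at 18.2% of probe sets. RNA was amplified before labelling, and the values are on a log2 scale on which 1 unit is a doubling.

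The targeted gene followed the labels. At the Apc probe set 1420956_at, wild-type arrays read 9.72, 9.61 and 9.93, 15lox/1572T arrays 8.96, 8.86 and 8.64, 15lox/1638N arrays 8.47, 8.67 and 8.52, and 15lox/15lox arrays 5.58, 6.10 and 5.69. Apc was thus lowest on all 3 15lox/15lox arrays, with a log2 difference from wild type of -3.96 (limma, adjusted p = 8.88e-07). The Apc probe set 1435543_at differed from the others, with 0.77 (limma, adjusted p = 0.0133). Of 6 markers of LSK cells 4 had a probe set of their own, and these, Kit, Cd34, Flt3 and Ptprc, read between 10.75 and 13.61 on the 12 arrays. Of 8 lineage markers 4 had one, and these, Cd3e, Cd4, Cd8a and Itgam, read between 4.72 and 5.84. In bulk samples, fewer cells that express a gene and less RNA per cell cannot be told apart.

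Nrep was highest in 15lox/15lox, intermediate in 15lox/1638N and near the wild-type level in 15lox/1572T. At probe set 1450839_at the wild-type arrays read 6.16, 6.31 and 6.25, a mean of 6.24 ± 0.08 (SD, n = 3), at the 45th percentile of all probe sets. The 15lox/1572T arrays read 6.22, 6.42 and 6.61. The 15lox/1638N arrays read 7.09, 6.99 and 8.13, and the 15lox/15lox arrays 10.37, 10.09 and 10.14. All 15lox/15lox arrays lay above all 15lox/1638N arrays, which lay above every array of the other 2 groups, whereas 15lox/1572T overlapped wild type. The mean of 15lox/15lox exceeded wild type by 3.96 (SE 0.10), or 15.6-fold. It exceeded 15lox/1638N by 2.80 (SE 0.37), or 6.95-fold, while 15lox/1638N exceeded wild type by 1.16 (SE 0.37), or 2.24-fold.

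The other Nrep probe set, 1436736_x_at, had the same order with a wider spread in wild type. Its wild-type arrays read 5.95, 5.85 and 6.76, its 15lox/1572T arrays 5.92, 6.37 and 6.24, its 15lox/1638N arrays 7.39, 6.86 and 8.18, and its 15lox/15lox arrays 10.18, 9.92 and 9.94. The lowest 15lox/1638N array, 6.86, was close to the highest wild-type array, 6.76, so these groups were adjacent here, and 15lox/15lox stood well clear of both. Its difference between 15lox/15lox and wild type was 3.83 (SE 0.30), or 14.2-fold. Both Nrep probe sets moved together over the 12 arrays (Pearson r = 0.987).

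Unc45b followed the same order from a level at the 20th percentile of all probe sets in wild type. At its probe set 1436939_at the wild-type arrays read 5.04, 4.56 and 4.63, the 15lox/1572T arrays 5.07, 4.86 and 4.67, the 15lox/1638N arrays 5.23, 5.35 and 6.85, and the 15lox/15lox arrays 8.87, 8.22 and 8.49. Again 15lox/15lox lay above all other arrays and 15lox/1572T overlapped wild type. Arrays 1 and 2 of 15lox/1638N were only just above the highest array of those groups, and array 3 was far above. For scale, the Y-linked genes Eif2s3y, Kdm5d and Uty read between 3.67 and 5.61 on the 4 arrays that lacked Y-linked signal. The wild-type levels of Unc45b and of Tfcp2l1, and those of Unc45b on arrays 1 and 2 of 15lox/1638N, lie inside that range and cannot be told from background by it. Folds and shares of these 2 genes therefore compare measured values and are not ratios of transcript amount. The measured difference from wild type was 3.78 (SE 0.24), or 13.8-fold, in 15lox/15lox and 1.07 (SE 0.54), or 2.1-fold, in 15lox/1638N. The level of 15lox/15lox exceeded that of 15lox/1638N by 2.72 (SE 0.55), or 6.58-fold.

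Tfcp2l1 showed the pattern at 1 of its 3 probe sets only. At 1418091_at the wild-type arrays read 5.40, 5.28 and 5.17, the 15lox/1572T arrays 5.17, 5.12 and 5.33, the 15lox/1638N arrays 6.66, 6.13 and 7.52, and the 15lox/15lox arrays 9.24, 9.25 and 9.65. The groups separated in the same order as for Nrep, with 15lox/1572T overlapping wild type. The measured difference from wild type was 4.10 (SE 0.15), or 17.1-fold, in 15lox/15lox and 1.49 (SE 0.41), or 2.81-fold, in 15lox/1638N, and 15lox/15lox exceeded 15lox/1638N by 2.61 (SE 0.42), or 6.1-fold. Probe set 1460714_at read between 4.08 and 4.55 on all 12 arrays and 1460715_x_at between 4.04 and 4.46. At these 2 probe sets every pair of groups overlapped, so the pattern of Tfcp2l1 rests on 1 probe set. Which part of the transcript each probe set reads was not examined.

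**Figure D1:**
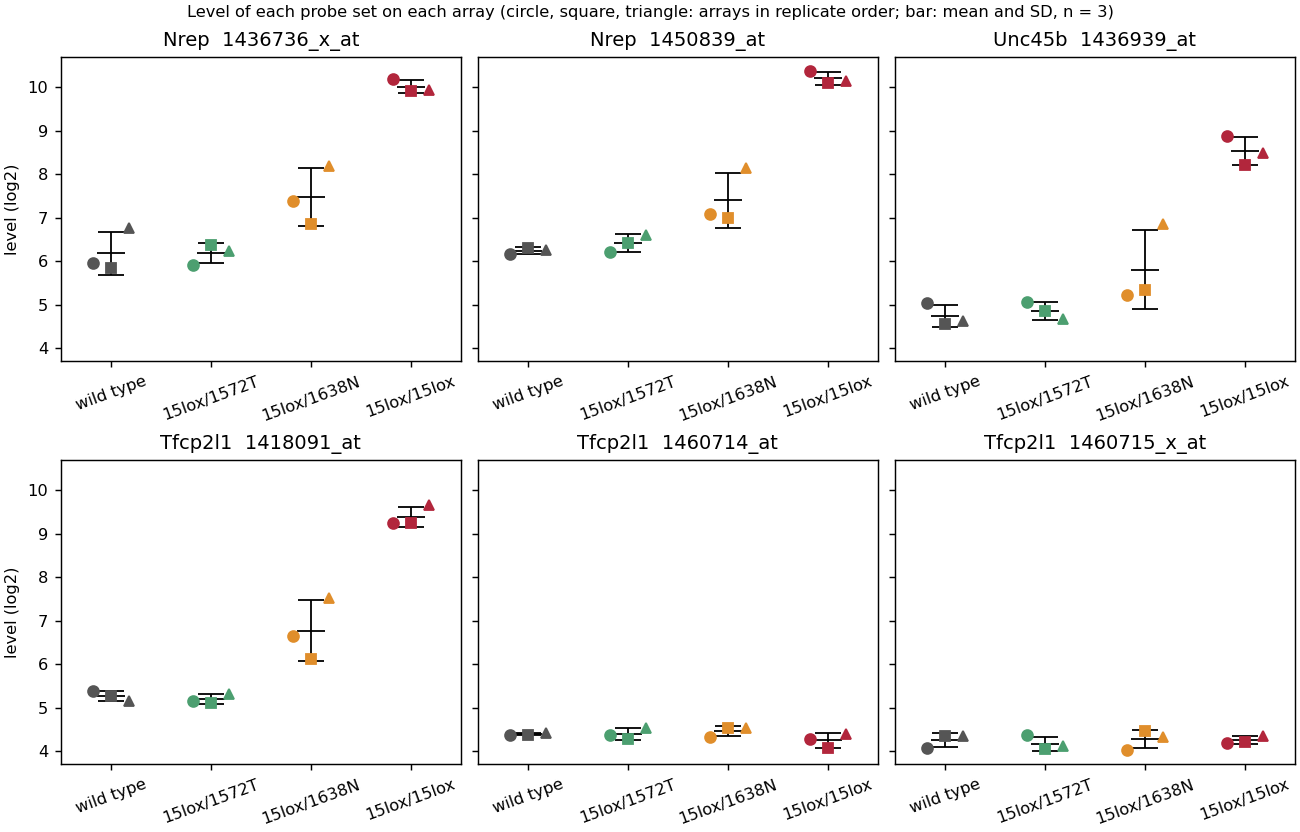
Level on the log2 scale (vertical axis) of the 6 probe sets on each of 12 arrays, by genotype; circle, square and triangle are the arrays in replicate order, and bars show the mean and SD of 3 arrays. At 4 probe sets 15lox/15lox is highest and 15lox/1638N intermediate, while 1460714_at and 1460715_x_at of Tfcp2l1 stay between 4.04 and 4.55.

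Over all probe sets, 579 (1.28%) had all 15lox/15lox arrays above the other 9 arrays, and 4 of the 6 probe sets of these genes were among them. The full order, with 15lox/1638N above wild type and 15lox/1572T and 15lox/15lox above 15lox/1638N, held for the same 4 and for 180 (0.399%) in all. All 15lox/1638N arrays exceeded all wild-type arrays at 5530 probe sets (12.3%), and all 15lox/1572T arrays exceeded them at 2139 (4.74%), none of which were of these genes. Since the genes were chosen for this pattern, nothing is read from these counts. Ranked by the gap between the lowest 15lox/15lox array and the highest other array, Nrep was at place 2 (1.96) and 4 (1.74), Tfcp2l1 at 5 (1.72) and Unc45b at 12 (1.37) among probe sets. Among genes, the protease Prss23 led with 2.43, followed by Nrep, the basement membrane gene Frem2 with 1.93, Tfcp2l1, and Nkd1 with 1.64. Gpr155 (1.60), Fetub (1.54), Ahsg (1.53), Atp13a4 (1.45) and Prkaa2 (1.42) came next, just ahead of Unc45b.

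How far each hypomorph went toward 15lox/15lox can be put as a share of the log2 difference from wild type. In 15lox/1638N the share was 28.2% for Unc45b, 29.3% for Nrep at 1450839_at, 33.8% at 1436736_x_at and 36.3% for Tfcp2l1. On the linear scale the shares were 8.57% for Unc45b, 8.5% for Nrep at 1450839_at and 11.2% for Tfcp2l1. In 15lox/1572T the log2 shares were small: 3.19% for Unc45b, 4.49% for Nrep at 1450839_at and -1.87% for Tfcp2l1. Among the 93 genes with a difference above 2 between 15lox/15lox and wild type, the median share in 15lox/1638N was 54.1%, with quartiles of 36.8% and 72.5%. All 3 genes sat below the lower quartile, but they were chosen for this pattern, so nothing is read from that place. The 93 genes include Xist, a gene by which the sex type of an array is read, with a difference of 4.28. The median share of those 93 genes in 15lox/1572T was 4.75%. Genes with lower shares than Unc45b numbered 11, with lower shares than Nrep 12, and with lower shares than Tfcp2l1 22, so the 3 are not the extreme of this pattern. All shares use the same wild-type arrays in both differences, so the values stand side by side and were not tested.

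Known Wnt targets lay on both sides of the 3 genes in their share in 15lox/1638N. Axin2, which encodes a scaffold of the destruction complex and is a common readout of beta-catenin, was at 80.9%. Lef1, which encodes a partner of beta-catenin on DNA, was at 99.5%, and the sulfotransferase gene Sult1a1 at 81.5%. Nkd1, an inhibitor of Wnt signalling, was at 41.1%, 47.4% and 50.3% at 3 of its probe sets and at 6.37% at 1429507_at, where its difference in 15lox/15lox was 0.85. Other Wnt targets, named after their values were seen, had lower differences in 15lox/1638N beside those in 15lox/15lox: Sp5 had -0.02 beside 1.28, Wif1 0.28 beside 1.89, Notum 0.34 beside 1.69 and Dkk1 0.56 beside 1.64. Wif1, Dkk1 and Nkd1 at 1429507_at lay inside the range of the Y-linked genes above, 3.67 to 5.61, in wild type and 15lox/1638N. Notum did so in wild type. Values of these genes in that range cannot be told from background by it. In 15lox/15lox, the log2 differences of Nrep, Unc45b and Tfcp2l1, from 3.78 to 4.10, stood beside 3.94 for Lef1 and 4.77 for Axin2 at their brightest probe sets. The other probe sets of Lef1 and Axin2 differed by only 0.37 and 1.11.

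**Figure D2:**
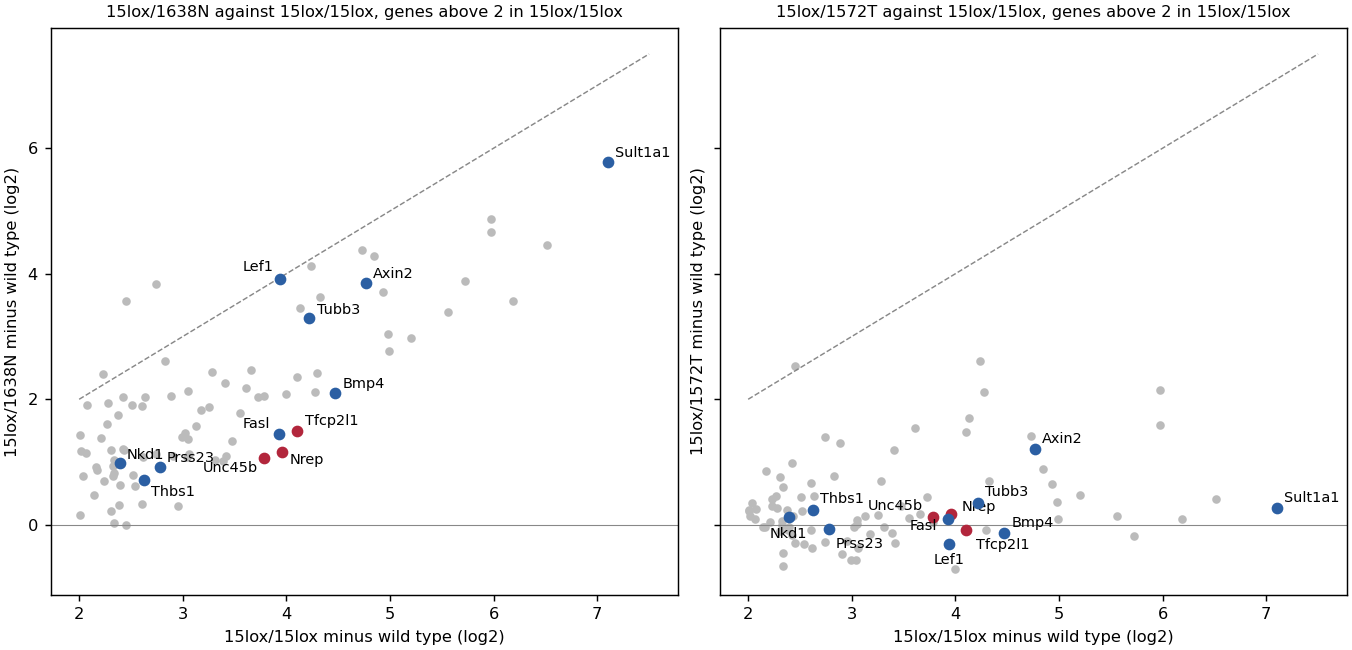
Log2 difference from wild type in 15lox/1638N (left) and 15lox/1572T (right), against that in 15lox/15lox (horizontal axes), for the 93 genes above 2 in 15lox/15lox, 1 probe set each. Red points are Nrep, Unc45b and Tfcp2l1, blue points are named genes and the dashed line marks equal differences; the red points lie at 1.07 to 1.49 on the left, below Axin2 and Lef1, and near 0 on the right.

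The lowest shares in 15lox/1638N were those of Frem2 and Actn2. Frem2 was at -0.394%, with 15lox/1638N arrays of 4.25, 4.46 and 4.41 against wild-type arrays of 4.43, 4.34 and 4.37, and 15lox/15lox arrays of 6.38, 7.73 and 6.38. Actn2, a muscle alpha-actinin, was at 1.05%. Its 15lox/15lox arrays read 8.04, 7.47 and 8.22, its 15lox/1638N arrays 5.32, 5.23 and 6.23 and its wild-type arrays 5.55, 5.73 and 5.42. The mean of 15lox/1638N differed from wild type by -0.01 for Frem2 and 0.02 for Actn2, against 1.07 to 1.49 for Unc45b, Nrep and Tfcp2l1. In both of these groups Frem2 lay inside the range of the Y-linked genes above, 3.67 to 5.61. Actn2 lay on both sides of the upper end of that range. Their shares therefore compare measured values and are not ratios of transcript amount. Actn2 was named after its values were seen. Next to the 3 genes in this order stood Thbs1 (27.2%), just below Unc45b, Epas1 (30.2%), just above Nrep, and Irf4 (35.7%), just below Tfcp2l1.

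The intermediate level depended in part on 1 array. Array 3 of 15lox/1638N exceeded the mean of arrays 1 and 2 by 1.09 for Nrep at 1450839_at, by 1.06 at 1436736_x_at, by 1.56 for Unc45b and by 1.12 for Tfcp2l1. Without it, the difference of 15lox/1638N from wild type fell from 1.16 to 0.80 for Nrep, from 1.07 to 0.55 for Unc45b and from 1.49 to 1.12 for Tfcp2l1. The difference between 15lox/15lox and 15lox/1638N was then 3.16 for Nrep, 3.24 for Unc45b and 2.98 for Tfcp2l1. Other genes were also higher on that array, by 1.80 for Bmp4, 1.90 for Tubb3, 1.18 for Fasl, 1.12 for Thbs1, 1.01 for Lef1, 0.70 for Nkd1 and 0.38 for Axin2. Over all probe sets, 104 (0.231%) were more than 1 above both other arrays of that group on array 3, against 29 for array 1 and 132 for array 2. The Apc probe set 1420956_at did not set array 3 apart, with 8.52 between 8.47 and 8.67, while 1420957_at read 7.24 on it against 7.67 and 8.03.

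Array 3 of 15lox/1638N also differed from arrays 1 and 2 in sex. By Xist and the Y-linked genes it was of female type, as were arrays 2 and 3 of 15lox/15lox and array 1 of 15lox/1572T, and the other 8 arrays, including all 3 wild-type ones, were of male type. The male-type 15lox/15lox array read 10.37 for Nrep, 8.87 for Unc45b and 9.24 for Tfcp2l1, above both female-type arrays of its group for Nrep and Unc45b and below both, by 0.01 from the nearer, for Tfcp2l1. The female-type 15lox/1572T array read 6.22, 5.07 and 5.17, within or next to the range of wild type. With sex type as a covariate, the difference between 15lox/15lox and wild type was 3.84 for Nrep, 3.48 for Unc45b and 3.82 for Tfcp2l1. That between 15lox/1638N and wild type was 1.10 for Nrep, 0.92 for Unc45b and 1.35 for Tfcp2l1. Whether sex type bears on the level of array 3 of 15lox/1638N was not tested, since no second female-type array of that genotype exists here.

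The 3 genes tracked each other over the 12 arrays. Pearson r was 0.987 between Nrep and Unc45b, 0.988 between Nrep and Tfcp2l1 and 0.978 between Unc45b and Tfcp2l1. These correlations rest mostly on the distance between 15lox/15lox and the other groups, and the arrays share their groups. Among 11084 genes that exceeded 7 on at least 1 array, the genes most like Nrep were Prss23 (r = 0.993), Tfcp2l1, Nkd1 (0.988), Unc45b, Fasl (0.985) and Zdhhc23 (0.976). Those most like Unc45b were Prss23 (0.989), Nrep, Fasl (0.981), Nkd1 (0.980), Thbs1 (0.978) and Tfcp2l1. Those most like Tfcp2l1 were Fasl (0.994), Nkd1 (0.990), Nrep, Prss23 (0.987), Slc22a23 (0.982) and Unc45b. Prss23, Nkd1 and Fasl, which encodes the ligand of the death receptor Fas, were thus near all 3.

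Prss23 and Fasl, picked for their likeness on these arrays, had the same stepped order by that choice. Prss23 at 1431057_a_at read 5.09, 5.16 and 5.21 in wild type, 5.72, 5.79 and 6.72 in 15lox/1638N and 8.23, 7.73 and 7.83 in 15lox/15lox. Fasl at 1449235_at read 4.11, 4.22 and 4.14 in wild type, 5.36, 5.07 and 6.39 in 15lox/1638N and 8.09, 7.62 and 8.54 in 15lox/15lox. In both, array 3 of 15lox/1638N was the highest of its group.

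**Figure D3:**
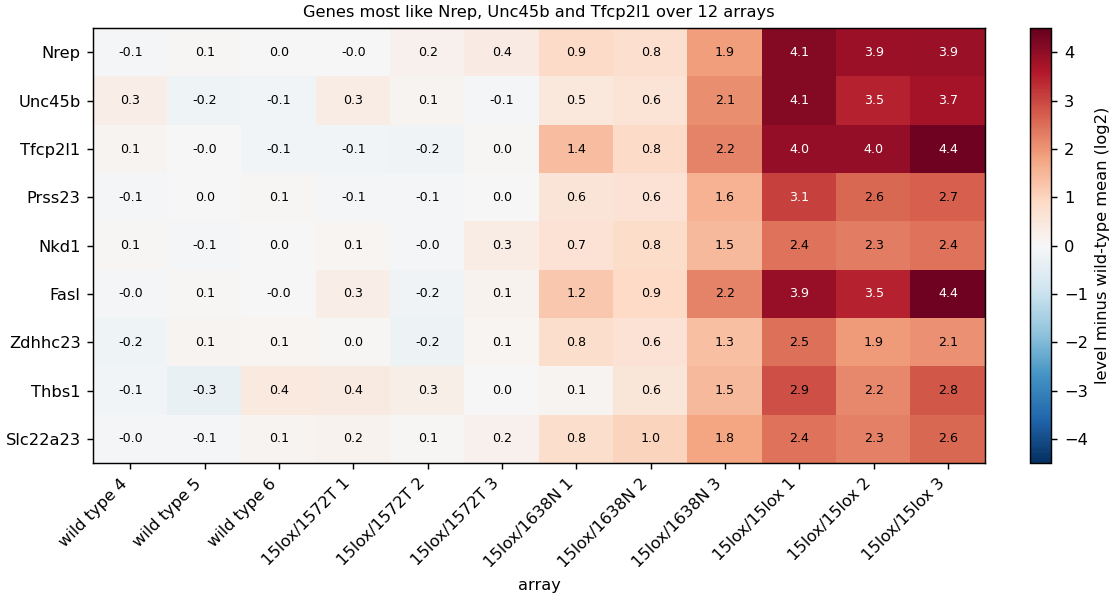
Level minus the wild-type mean on the log2 scale (colour and numbers) for Nrep, Unc45b, Tfcp2l1 and the 6 genes most like any of them, on 12 arrays (columns). Values are near 0 in wild type and 15lox/1572T, higher on array 3 than on arrays 1 and 2 of 15lox/1638N, and highest in 15lox/15lox.

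Genes related to the 3 by pathway or cell type were counted from lists, each gene at its brightest probe set, with limma and an adjusted p under 0.05 over all probe sets. Of all probe sets, 1.49% passed between 15lox/15lox and wild type (1.16% higher and 0.333% lower), 1.38% between 15lox/1638N and wild type (0.548% higher and 0.834% lower) and 0.0288% between 15lox/1572T and wild type. The lists hold 1 probe set per gene, so these shares are not fully matched to them. A fit with 1 probe set per gene called 465 of 18194 genes in 15lox/15lox and 636 in 15lox/1638N, which are larger shares. The median difference over all probe sets was -0.03 in 15lox/15lox. At such shares a short list would hold few or no calls whatever its genes, so nothing is read from counts of 0. For counts at an unadjusted p under 0.05, no share over all probe sets is given here. Of 15 Wnt targets measured, 11 were higher in 15lox/15lox and 0 lower, with a median of 1.89. In 15lox/1638N 7 of the 15 were higher, with a median of 0.66, and in 15lox/1572T limma called 0, with 1 at an unadjusted p under 0.05. Axin2 had the largest difference of the list in 15lox/1572T, 1.20 at its brightest probe set (limma, adjusted p = 0.447). It read 7.69, 8.80 and 9.32 there, against 7.26, 7.38 and 7.57 in wild type. Its other probe set differed by 0.23. Tnfrsf19, a receptor of the TNF family, rose by 2.39 in 15lox/15lox at its brightest probe set (limma, adjusted p = 5.39e-05), and its 0.63 in 15lox/1638N did not pass (adjusted p = 0.142). The other Tnfrsf19 probe sets disagree, with -0.01 and 0.09 in 15lox/15lox (limma, adjusted p = 0.991 and 0.931). Apcdd1, a Wnt inhibitor at the membrane, rose in both genotypes, by 3.05 (limma, adjusted p = 4.84e-05) and 2.14 (adjusted p = 0.0016). In 15lox/15lox 7 of the 15 Wnt targets were called with sex type as a covariate or without wild-type array 6. In 15lox/1638N 3 were called without array 2 of that genotype or without any 1 wild-type array.

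The partners of Unc45b differed little between 15lox/15lox and wild type. For 11 measured genes of Unc45a, Hsp90 and its cochaperones, all differences lay between -0.11 and 0.08. Limma called 0 of them in 15lox/15lox, 0 also at an unadjusted p under 0.05. Of all probe sets 1.49% were called, so the count of 0 is near that share. Unc45a, the paralogue of Unc45b that acts in cells other than muscle, read 10.13, 10.37 and 10.47 in wild type and from 9.99 to 10.80 in 15lox/15lox, which overlap. Smyd1, a muscle methyltransferase that also binds myosin, read between 5.70 and 6.03 throughout. Of 13 non-muscle myosin genes, the possible clients, 2 were higher: Myo5a by 0.95 (limma, adjusted p = 0.00512) and Myh10 by 1.69 (adjusted p = 0.0239). The call of Myh10 was lost without wild-type array 4, 5 or 6 or 15lox/15lox array 2 or 3 (adjusted p from 0.0574 to 0.113), with sex type as a covariate (0.159) and with wild-type arrays 1 to 3 as control (0.0573). The other Myh10 probe set differed by 0.01 (limma, adjusted p = 0.992).

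No muscle marker of the list exceeded wild type by more than 0.13 in 15lox/15lox, where Unc45b was high. Of 27 muscle markers measured, limma called 0 higher and 2 lower, with a median of -0.16. Of all probe sets 1.16% were called higher and 0.333% lower, so nothing is read from the count of 0. At an unadjusted p under 0.05, 0 were higher and 7 lower, counts without a share over all probe sets beside them. Their mean level per array ran from 6.02 to 6.05 in wild type and from 5.74 to 5.88 in 15lox/15lox. The 2 called lower were Myog, a regulator of muscle differentiation, by 1.00 (limma, adjusted p = 0.00224), and Tnni2, a troponin subunit, by 0.90 (adjusted p = 0.02). Myog read 6.29, 5.86 and 5.95 in wild type and 5.25, 4.84 and 5.01 in 15lox/15lox. The 15lox/15lox values lie inside the range of the Y-linked genes above, 3.67 to 5.61, and a filter on low values left Myog out. The call of Tnni2 was lost with sex type as a covariate (adjusted p = 0.139), with wild-type arrays 1 to 3 as control (0.0891) and without any 1 of the 15lox/15lox arrays or wild-type array 5 or 6 (0.052 to 0.103), and its other probe sets, with -0.07 and -0.64, did not pass (limma, adjusted p = 0.913 and 0.133). Actn2, described above, was not in that list and was the exception among muscle genes named here.

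Genes of the family and the network of Tfcp2l1 were counted beside the 1.49% of all probe sets called in 15lox/15lox. Of 5 other CP2 and grainyhead genes, limma called 0 in 15lox/15lox and 0 at an unadjusted p under 0.05, with differences from -0.22 to 0.18. Tfcp2, the paralogue that names the family, read 9.06, 8.99 and 8.96 in wild type and 8.86, 8.95 and 8.65 in 15lox/15lox. Of 21 genes of the naive pluripotency network, 1 rose and 1 fell, with a median of -0.06. Klf5 rose by 2.37 (limma, adjusted p = 0.00136), with 7.73, 8.42 and 7.56 in wild type and 10.03, 10.34 and 10.46 in 15lox/15lox, which do not overlap. Its other probe sets, with 0.31 and 0.73, did not pass (limma, adjusted p = 0.562 and 0.247). Klf2 fell by 1.54 (limma, adjusted p = 0.0202), a call lost with sex type as a covariate (adjusted p = 0.116) and without 15lox/15lox array 1 or 2 or wild-type array 4 or 5 (0.0549 to 0.0981). Esrrb, which acts beside Tfcp2l1 in embryonic stem cells, read between 4.90 and 5.09 on all arrays, and Nanog between 4.13 and 4.71. Of 18 kidney and epithelial markers limma called 0, with 1 higher and 0 lower at an unadjusted p under 0.05, and their mean level per array was 5.68 to 5.82 in wild type and 5.63 to 5.73 in 15lox/15lox.

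Lists tied to Nrep gave single genes, beside the 1.49% of all probe sets called in 15lox/15lox. Of 24 TGF-beta pathway genes, 1 rose and 1 fell in 15lox/15lox. Thbs1, an extracellular activator of TGF-beta, rose by 2.62 at 1460302_at (limma, adjusted p = 0.00121) but differed by -0.10 at 1450377_at, so its probe sets disagree. Pmepa1, an inhibitor of TGF-beta signalling, fell by 0.88 (limma, adjusted p = 0.0442), a call lost on quantile normalization (adjusted p = 0.0597), with sex type as a covariate (0.242), with wild-type arrays 1 to 3 as control (0.109), with only the 2 groups compared in the fit (0.0524) and without any 1 of 9 of the 12 arrays (0.064 to 0.195). Its other probe sets, with -0.58 and -0.19, did not pass (limma, adjusted p = 0.103 and 0.668). Tgfb1 itself read 11.75, 11.91 and 11.64 in wild type and 11.47, 11.59 and 11.41 in 15lox/15lox. Of 15 stromal and myofibroblast markers limma called 0, with 2 higher and 0 lower at an unadjusted p under 0.05. Of 17 neural markers 1 rose: Tubb3, a neuronal tubulin, by 4.22 (limma, adjusted p = 0.000716). Tubb3 read 5.71, 5.68 and 5.63 in wild type, 7.99, 8.69 and 10.24 in 15lox/1638N and 10.41, 9.74 and 9.52 in 15lox/15lox. Array 3 of 15lox/1638N lay among the 15lox/15lox arrays of Tubb3, while arrays 1 and 2 lay below all of them. Nrep was chosen for its separation of these groups, so nothing is read from that difference between the genes.

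**Figure D4:**
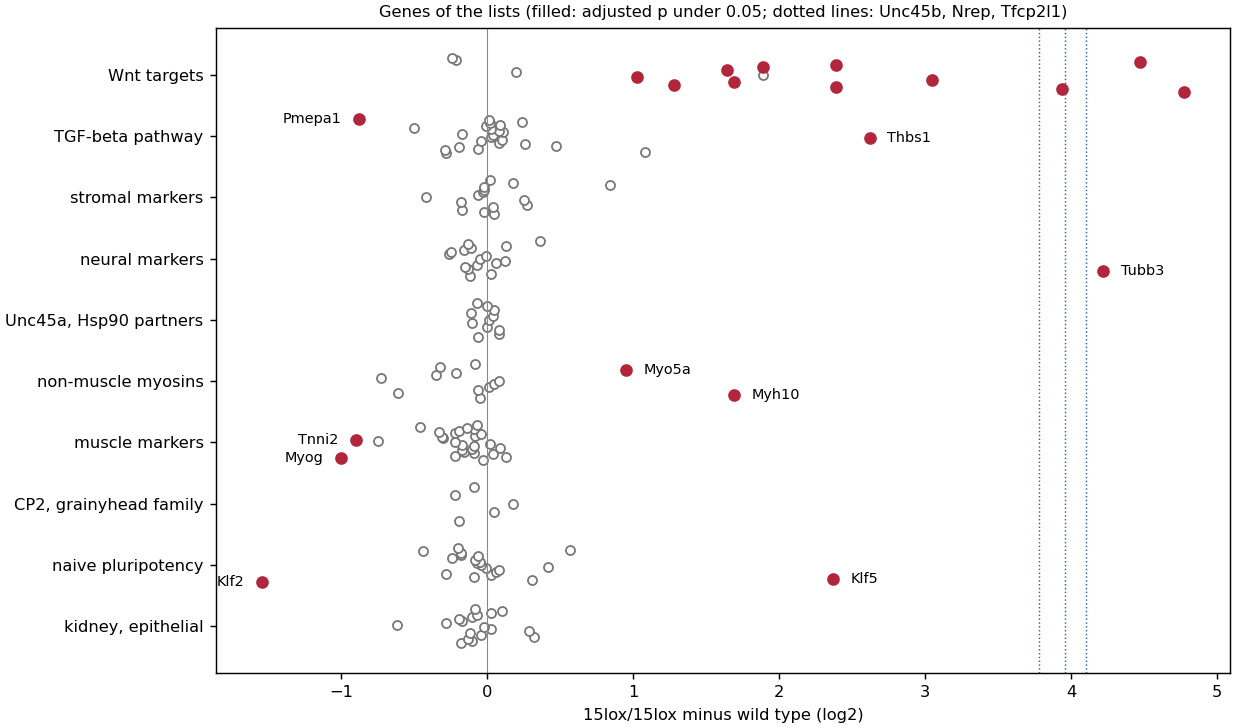
Log2 difference between 15lox/15lox and wild type (horizontal axis) for each measured gene of 10 lists, 1 point per gene; filled points passed limma at an adjusted p under 0.05, and dotted lines mark Unc45b, Nrep and Tfcp2l1. Outside the Wnt targets most points lie near 0, and Tubb3 is the only one beyond the dotted line of Tfcp2l1.

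The chromosomal neighbours were compared next, because Nrep lies on the same chromosome as Apc, with 1 protein-coding gene, Epb41l4a, between them in the RefSeq order. Of the 20 nearest protein-coding genes, 10 on each side, 18 were measured around Nrep. In 15lox/15lox 2 of them were higher: Apc at 1435543_at by 0.77, a probe set that went against the other Apc probe sets, and Nme5 by 2.24 (limma, adjusted p = 0.0241). With sex type as a covariate neither passed (adjusted p = 0.103 and 0.156). The call of Apc at that probe set was also lost without 15lox/15lox array 1 or wild-type array 4 or 5 (0.0507 to 0.0782) and with only the 2 groups compared in the fit (0.0582), and that of Nme5 without 15lox/15lox array 1 or 3 or wild-type array 4 or 5 (0.0826 to 0.12). Epb41l4a differed by -0.14 and Stard4, on the other side of Nrep, by 0.00, against 3.96 for Nrep. In 15lox/1638N 1 neighbour was higher, Camk4 by 1.93 at 1441974_at (limma, adjusted p = 0.00448), and other Camk4 probe sets differed by 0.03 to 0.13. In 15lox/15lox Camk4 differed by 0.29 at 1441974_at (limma, adjusted p = 0.781), the probe set counted. At 1439843_at, which was not counted, it was higher there by 0.88 (limma, adjusted p = 0.00414). The remaining Camk4 probe sets differed by -0.24 to 0.01 in 15lox/15lox. Around Unc45b 18 neighbours were measured and around Tfcp2l1 19. Limma called 0 of either set in 15lox/15lox, where 1.49% of all probe sets passed. Their differences ran from -0.43 to 0.42 and from -0.38 to 0.60. At an unadjusted p under 0.05, 1 neighbour of Unc45b was higher and 0 lower, and 2 neighbours of Tfcp2l1 were higher and 2 lower.

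**Figure D5:**
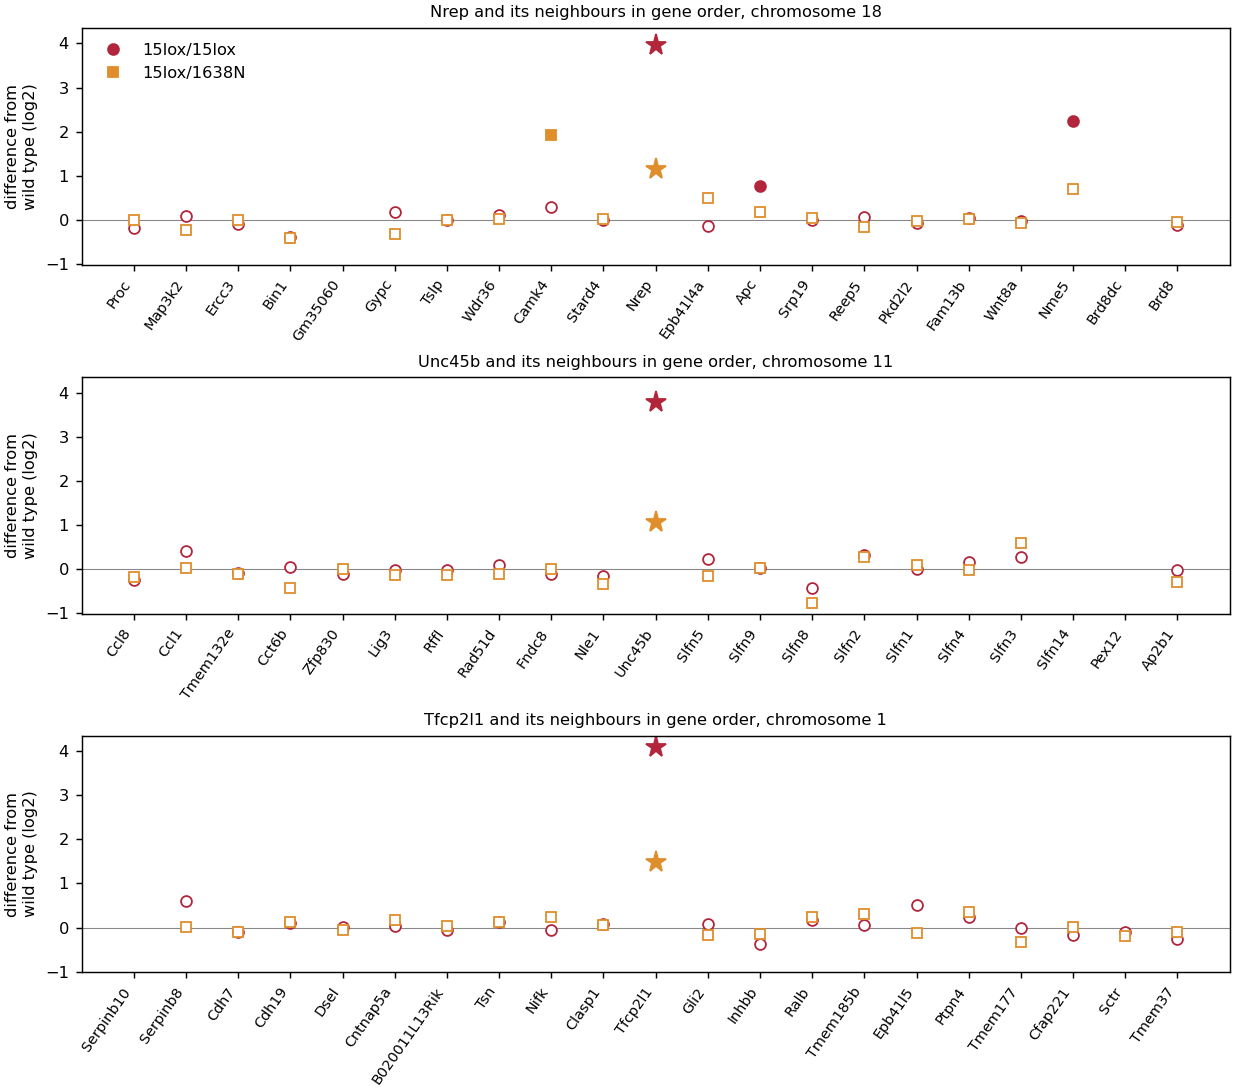
Log2 difference from wild type (vertical axes) of Nrep, Unc45b and Tfcp2l1 (stars, not tested) and the 10 protein-coding genes on each side in gene order (horizontal axes, not to scale in distance); circles are 15lox/15lox, squares 15lox/1638N, filled where limma gave an adjusted p under 0.05, and names without a point had no probe set of their own. The stars stand at 3.78 to 4.10 for 15lox/15lox, and most neighbours lie near 0.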

How the data were processed

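The deposited values of 15 arrays and 45101 probe sets are read as log2 probe set summaries from their range, since no header names the unit. RMA and mm9 are named, per the submitters' processing notes, without role or version; background correction and other settings are not stated in the labels or headers. Array medians ran from 6.65 to 6.84, with 0 missing values. The number of arrays limits the precision.

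Names came from the platform annotation: 34958 probe sets had 1 symbol, 932 several, and 9211 were not listed. Gene order and promoters came from RefSeq, GRCm38.p6. One fit with limma 3.58.1 in R 4.3.3 (lmFit, eBayes, no filter or further normalization) covered all probe sets on 12 arrays with 8 residual degrees of freedom; wild-type arrays 1 to 3 were left out. Tests were two-sided, with Benjamini-Hochberg adjustment per comparison and a threshold of 0.05. The method was tested on simulated data. SEs of the 3 genes come from the spread of the arrays of the groups compared.

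The 3 genes, the lists and the tests were chosen with earlier results of these data known. Named genes were Apc, Axin2, Lef1, Nkd1 and Sult1a1, up to 5 called genes per list with list genes of known role beside them, the 6 genes most like each of the 3, and the 10 largest gaps; Actn2, Epas1, Irf4, Camk4, Sp5, Wif1, Notum and Dkk1 were named after their values were seen. Replicate numbers were checked for pairing: deviations of same-numbered 15lox/15lox and 15lox/1572T arrays correlated at 0.208, 0.212 and 0.143. Those of 15lox/15lox and 15lox/1638N arrays correlated at 0.079, 0.372 and 0.379. Those of 15lox/1572T and 15lox/1638N arrays correlated at -0.071, 0.313 and 0.073. These values alone do not settle whether same-numbered arrays belong together. The main fit and the SEs used no pairing, and wild-type arrays 4 to 6 share no number with mutants. Protein sequences were not analysed here.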

Additional observations from a re-analysis of the deposited data

Results flagged for a closer look

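At Tfcp2l1 1460715_x_at, over all 6 wild-type arrays, array 4 read 4.08 and stood apart from the others by more of the range than Dixon's 95% critical value allows. Wild-type arrays 1 to 3 all read 4.25 at that probe set. The critical value assumes independent arrays, so it does not apply here and nothing is read from the flag. This is a probe set at which Tfcp2l1 differed little between genotypes. Arrays 1 to 3 of wild type, which look shifted onto the mean of arrays 4 to 6, are part of that group.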

How the results depend on the processing

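No called difference of a named list gene between 15lox/15lox and wild type changed sign under the alternatives run. Small differences of 15lox/1572T from wild type did: for Unc45b 0.12 became -0.03 with sex type as a covariate, and for Nrep at 1436736_x_at -0.01 ranged from -0.17 to 0.28 without 1 array. Calls in 15lox/1638N against wild type, 247 higher and 376 lower, became mostly higher without array 1 (131 and 101) or 2 (150 and 70) of that genotype or without wild-type array 4 (96 and 63), 5 (130 and 101) or 6 (122 and 109). With all 6 wild-type arrays, the called probe sets numbered 1951 in place of 674 (15lox/15lox against wild type), 3912 in place of 623 (15lox/1638N against wild type), 283 in place of 13 (15lox/1572T against wild type), 220 in place of 84 (15lox/15lox against 15lox/1638N), 697 in place of 451 (15lox/15lox against 15lox/1572T) and 157 in place of 77 (15lox/1638N against 15lox/1572T). In the same order, array weights gave 1124, 3443, 92 and 173, and 134 for the last comparison. Sex type as a covariate gave 346 for the first comparison, 392 for the second and 52 for the fourth. Fitting only the 2 groups compared gave 1135 for the second, then 1, 2, 255 and 13. The replicate block gave 1045 for the second, 31 for the third, 39 for the fourth and 33 for the last, with 692 for the first and 357 for the fifth. Against wild type this fit takes its contrast from wild-type arrays 1 to 3, the ones that share numbers with mutants, so 2 choices changed at once there. Each 15lox/15lox array correlated best with its own number in both other mutant groups, which arrays 1 and 3 of 15lox/1572T did not toward 15lox/1638N. Trend and robust options gave 21 for the third and 133 for the fourth, and 1 probe set per gene gave 20 for the third. Leaving out 1 array at a time gave 387 to 753 for the first, 159 to 882 for the second, 7 to 25 for the third, 24 to 185 for the fourth, 329 to 496 for the fifth and 39 to 89 for the last. The cause of these shifts was not tested.

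For the 3 genes, 183 values stayed within 1 SD and 11 moved by more. The largest moves came from averaging the 3 Tfcp2l1 probe sets, which include the 2 flat ones: 15lox/15lox then exceeded wild type by 1.32 in place of 4.10, 15lox/1638N exceeded it by 0.53 in place of 1.49, and 15lox/15lox exceeded 15lox/1638N by 0.79 in place of 2.61. Against 15lox/1572T these averages were 1.37 for 15lox/15lox and 0.58 for 15lox/1638N. Without 1 array at a time, the difference of 15lox/1638N from wild type ranged from 0.80 to 1.37 for Nrep and from 0.55 to 1.36 for Unc45b, and that between 15lox/15lox and 15lox/1638N from 2.59 to 3.16 and from 2.43 to 3.24. Leaving out array 3 of 15lox/1638N gave the lowest of the first and the highest of the second. Of the counts of list genes in 15lox/15lox, 158 stayed within 1.5 times and 22 moved. Calls of named list genes that were lost are given beside each gene, except that Tnni2 also lost its call under the replicate block (adjusted p = 0.127), which uses wild-type arrays 1 to 3. With 3 arrays per group, all of these levels rest on few samples.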
